A study of Mus musculus with 6 samples.

Results

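The genes described here are 10 genes of endothelial cells, the cells that line blood vessels: Cdh5, Pecam1, Kdr, Tek, Tie1, Eng, Emcn, Robo4, Egfl7 and Sox17. They were chosen by symbol, as endothelial genes including Cdh5, which encodes CD144, the surface antigen by which the starting cells of the study were sorted. Each of the 10 symbols matched 1 gene ID, out of 55401 gene IDs in the table. RNA was sequenced from mouse marrow in 6 bulk libraries, each made from 2000 sorted cells. Of these, 3 held LSK cells (Lin-, Sca-1+, c-Kit+), the marrow fraction that contains blood stem and multipotent progenitor cells, taken untreated from wild type C57BL/6 mice aged 6 to 8 weeks. The other 3 held Lin-, Sca-1+, c-Kit- cells, labelled ESC-derived and wild type, sorted from the marrow of primary recipients that had been transplanted with CD144+ cells made by differentiating embryonic stem cells (ESCs). The sources used here do not give the strain and age of the recipients, the number of animals behind a library, or any separation of donor from recipient cells. Both groups were thus Lin-, Sca-1+ cells of marrow, and the CD144+ cells themselves were not among the libraries.

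Endothelial cells hold together through VE-cadherin (CD144) and PECAM-1 (CD31) at their borders, and they sense growth factors through the VEGF receptor KDR and the angiopoietin receptors TIE1 and TEK (TIE2). In the embryo, blood stem cells arise from haemogenic endothelium, which carries VE-cadherin and is governed by SOX17 and factors of the ETS, GATA and RUNX families. Adult blood stem and progenitor cells keep some endothelial genes, among them Eng, Tek, Emcn, Egfl7 and Esam, while PECAM-1 is also found on platelets, monocytes and lymphocytes.

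The libraries held 41580006 to 49269286 estimated counts. A sequenced fragment was often worth about 4 counts, so 12 counts over the 3 libraries of a group, or about 3 fragments, served as the floor. Where both groups were at or under it, no fold is given. Where only 1 group was, a bound or a ratio with a counting interval is given. For LSK cells this floor equals 0.0856 CPM (counts scaled to library size with TMM factors) and for ESC-derived cells 0.0911 CPM. It covers counting error only. LSK replicate 2 lay between LSK replicates 1 and 3 for 62.5% of 15042 genes, against 19.1% and 18.4% for replicates 1 and 3 and 30.2 to 37.6% for the ESC-derived replicates. The same held for 7 of the 8 endothelial genes that could be tested. A weighted mean of replicates 1 and 3 (weight 0.52 for replicate 1) came within a root mean square log2 difference of 0.324 of replicate 2. The same fit gave 0.506 for replicate 1, 0.535 for replicate 3 and 0.673 to 0.739 for the ESC-derived replicates. Whether replicate 2 is independent of the other LSK libraries is not known, so counts of calls are also given without it, and each SD and p over 3 LSK libraries treats it as independent. Nothing says that the libraries of a group came from separate animals, so p-values measure only the spread between these libraries, which may be technical.

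Sequences are shown for the members whose locus bears on how the values can be read. Egfl7 hosts the endothelial microRNA miR-126, whose hairpin lies inside the gene on the same strand. Its mature arm, from RefSeq (GRCm38.p6, chr2:26591402-26591423, plus strand), is printed with the seed, bases 2 to 8, in capitals.
mmu-miR-126a-3p: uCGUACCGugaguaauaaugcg
The host row Egfl7 and the row for Mir126a are counted apart, and Mir126a had 0 counts in all 6 libraries. Reverse transcription from poly(A) tails does not capture the mature microRNA, so the Egfl7 values below are those of the host transcript. Of the 10 members, 7 had promoter entries in RefSeq (GRCm38.p6), with 9 windows, since Egfl7 has 3 starts. The entries cover Egfl7, Eng, Emcn, Tek, Tie1, Kdr and Robo4. The 250 bases upstream of the start are printed for Eng (chr2:32646345-32646594, plus strand), which differed most clearly between the groups, for Tek (chr4:94739039-94739288, plus strand), a receptor listed at 0 in ESC-derived replicates 1 and 3, and for 1 start of Egfl7 (chr2:26583615-26583864, plus strand), the member with the highest level. Capitals mark the words CCGGAA and CAGGAA on either strand, which contain the GGAA core that ETS factors bind.
Eng: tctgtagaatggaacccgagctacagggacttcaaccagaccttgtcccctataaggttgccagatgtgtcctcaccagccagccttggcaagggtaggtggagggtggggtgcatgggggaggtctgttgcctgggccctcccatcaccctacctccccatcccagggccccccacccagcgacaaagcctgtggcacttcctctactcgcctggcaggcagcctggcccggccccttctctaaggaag
Tek: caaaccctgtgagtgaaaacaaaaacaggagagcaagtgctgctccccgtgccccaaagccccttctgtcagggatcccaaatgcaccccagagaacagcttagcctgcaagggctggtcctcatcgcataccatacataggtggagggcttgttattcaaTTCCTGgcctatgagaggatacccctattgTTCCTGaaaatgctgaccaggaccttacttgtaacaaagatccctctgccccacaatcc
Egfl7: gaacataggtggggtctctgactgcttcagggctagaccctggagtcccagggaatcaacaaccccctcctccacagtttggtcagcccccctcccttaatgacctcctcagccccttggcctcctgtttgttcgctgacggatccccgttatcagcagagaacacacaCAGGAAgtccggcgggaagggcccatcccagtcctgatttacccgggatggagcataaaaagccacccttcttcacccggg
Neither word occurred in the Eng window, where GGAA outside these words does occur and is not marked. The Tek window held 2 matches and this Egfl7 window 1. Over all members, 7 of 9 windows, from 6 of 7 genes, held a match, beside 35.1% of all 32851 promoter windows of this length. Of the 250 bases, 212 in the Tie1 window and 75 in the Robo4 window lay in annotated exons of the gene. Both windows held a match, and the other windows had at most 27 such bases. A GATA word (AGATAA or TGATAA, either strand) was found in 1 of 9 windows, the Egfl7 window printed above, beside 16.6% of all windows. The E-box CAGCTG was found in 2 of 9 windows, in Egfl7 and Robo4, beside 13.0%, and the RUNX word TGTGGT in 0 of 9, beside 14.0%. These matches describe letters and are not binding sites.

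Transcripts of the endothelial genes were present in adult LSK cells for 8 of the 10 members and were lower in the ESC-derived cells for those 8, while the CD144 gene itself was at or under the floor in both groups. Eng, Egfl7, Tie1, Emcn and Pecam1 fell, by 2.01-fold for Pecam1 to 30.7-fold for Eng. Tek, Robo4 and Kdr were lower in every ESC-derived library than in any LSK library but did not pass the test. The 10 genes together summed to 354.9, 339 and 326.1 CPM in LSK replicates 1 to 3 and to 66.0, 48.4 and 25.6 CPM in ESC-derived replicates 1 to 3. Fewer cells carrying a transcript and less transcript per cell cannot be told apart in bulk RNA. The c-Kit gate, the cell origin and the transplantation all differed together between the groups, so their parts in these differences cannot be told apart either.

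**Figure D1:**
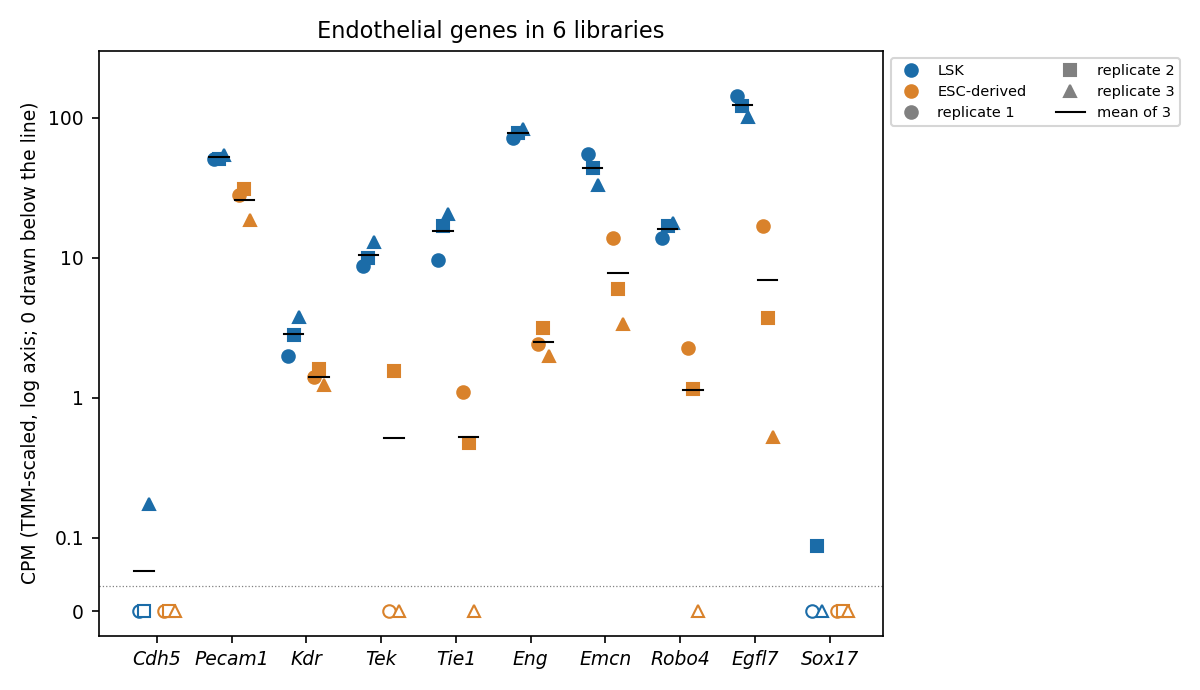
CPM (TMM-scaled) of the 10 endothelial genes on a log axis, with LSK libraries in blue, ESC-derived libraries in orange, 1 symbol per replicate, the mean of 3 as a bar and open symbols for 0. For the 8 genes from Pecam1 to Egfl7 each ESC-derived library lies below each LSK library, and Cdh5 and Sox17 have a single library above 0 each.

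In the edgeR quasi-likelihood test over 16211 genes, ESC-derived minus LSK, 5 of the 8 tested members fell and 0 rose at an adjusted p of 0.05. In all, 30.0% of tested genes were called, 15.2% lower and 14.8% higher. At an unadjusted p of 0.05, 6 members were lower and 0 higher, and the DESeq2 Wald test and limma-voom each called 7 lower and 0 higher. Both tests also called more of all genes lower, 3380 of 16121 with DESeq2 and 3124 of 16211 with limma-voom. The edgeR test called 2466 of 16211 lower. The libraries of the groups did not overlap, with ESC-derived lower, for 8 of 8 tested members and for 27.2% of all tested genes, and with ESC-derived higher for 0 of 8 and 22.6%. Their median log2 fold change was -3.97, beside -0.07 over all tested genes. A member could pass the low-count filter through its LSK libraries alone, so these shares describe the 8 genes and are not evidence about the 10. Without LSK replicate 2, 2 of 8 members fell (Eng and Emcn), beside 7.34% of genes called lower. Without LSK replicate 1, 3 members fell (Pecam1, Emcn and Eng), beside 11.1% of genes, and without LSK replicate 3, 2 fell (Emcn and Eng), beside 11.4%. Without ESC-derived replicate 2, 3 fell, beside 12.6% of genes. These were Pecam1, Eng and Tek, the last not among the 5.

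**Figure D2:**
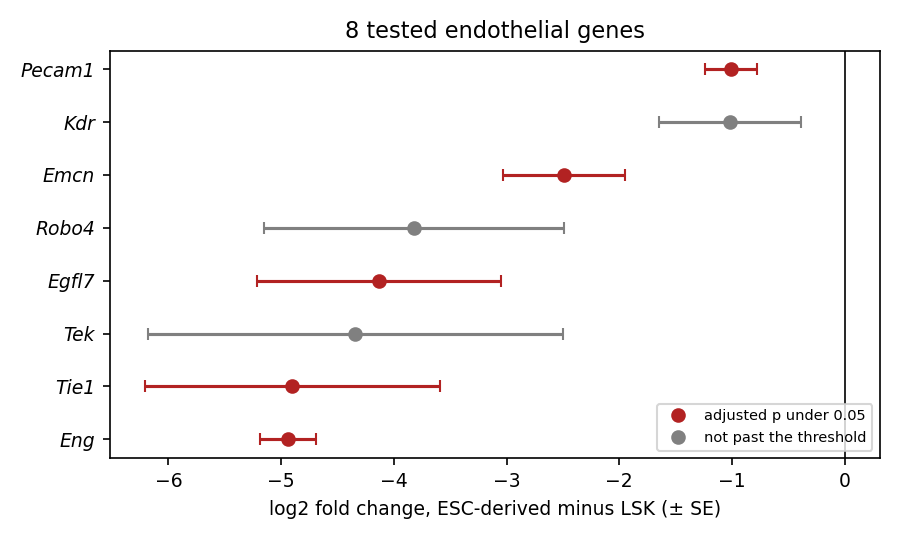
Fitted log2 fold change (ESC-derived minus LSK) of the 8 tested endothelial genes with its standard error as a bar, red where the adjusted p was under 0.05. Values run from -4.94 for Eng, which has a short bar, to -1.01 for Pecam1, and the grey genes Tek, Robo4 and Kdr did not pass.

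Among the junction genes, Cdh5 (ENSMUSG00000031871, mm10 chromosome 8, 104101625 to 104144511, plus strand) encodes the adhesion molecule that seals endothelial junctions. It had 0, 0 and 8 counts in LSK replicates 1 to 3 and 0 counts in each ESC-derived library. Both groups were at or under the floor, so no fold is given and Cdh5 was not tested. The cells recovered from the recipients thus showed no Cdh5 transcript down to 0.0911 CPM, and the LSK cells had 0.0581 CPM on average, all from 1 library.

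Pecam1 (ENSMUSG00000020717, chromosome 11, 106654217 to 106750628, minus strand) encodes the adhesion receptor CD31. Its level was 50.8, 50.7 and 54.5 CPM in LSK replicates 1 to 3 and 28.2, 30.8 and 18.5 CPM in ESC-derived replicates 1 to 3. The lowest LSK library stood above the highest ESC-derived one, and Pecam1 had the highest value of the 10 members in each ESC-derived library. The LSK mean was 52.0 ± 2.17 CPM and the ESC-derived mean 25.8 ± 6.49 CPM (SD over n = 3 libraries, as for all means that follow), a Pecam1 log2 fold change of -1.01 ± 0.23 (SE; edgeR adjusted p = 0.0164, range over 16 alternatives 0.000185 to 0.682). The call was lost without LSK replicate 2 (edgeR adjusted p = 0.0609) or 3 (0.0519).

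Among the growth factor receptors, Kdr (ENSMUSG00000062960, chromosome 5, 75932827 to 75978458, minus strand), the main receptor for VEGF-A, had the lowest LSK level of the 8. It had 2.00035, 2.82 and 3.74 CPM in the LSK libraries and 1.40, 1.61 and 1.23 CPM in the ESC-derived libraries. The groups did not overlap, but the gap between them, from 1.61 to 2.00035 CPM, was smaller than the spread within LSK cells. Its log2 fold change of -1.02 ± 0.63 did not pass (edgeR adjusted p = 0.285, range over 16 alternatives 0.169 to 0.788).

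Tek (ENSMUSG00000006386, chromosome 4, 94739289 to 94874976, plus strand) encodes TIE2, the receptor for the angiopoietins, known for holding blood stem cells quiescent in marrow. Tek was at 8.76, 9.89 and 12.9 CPM in the LSK libraries, at 1.56 CPM in ESC-derived replicate 2, and at 0 counts in ESC-derived replicates 1 and 3. All 66 ESC-derived counts thus came from 1 library. The log2 fold change of -4.34 ± 1.84 did not pass (edgeR adjusted p = 0.128, range over 16 alternatives 0.00222 to 0.255), whereas Tek passed with the DESeq2 Wald test, limma-voom and counts divided by 4. Without ESC-derived replicate 2 the group was at 0, Tek was at least 78.2-fold higher in LSK cells against the floor, and the adjusted p was 0.00222.

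Tie1 (ENSMUSG00000033191, chromosome 4, 118471191 to 118490061, minus strand), the partner receptor of TIE2, was at 9.63, 16.9 and 20.3 CPM in the LSK libraries and at 1.09, 0.472 and 0 CPM in the ESC-derived libraries. The LSK libraries spread over a wider range than for Tek, and the groups stayed apart. Tie1 fell by 4.90 ± 1.31 on the log2 scale (edgeR adjusted p = 0.0299, range over 16 alternatives 3.41e-05 to 0.088). Leaving out LSK replicate 1, 2 or 3 or ESC-derived replicate 2 ended the call (0.0571 to 0.088), and the log2 fold change was -6.05 without ESC-derived replicate 1 and -4.31 without replicate 3.

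Eng (ENSMUSG00000026814, chromosome 2, 32646595 to 32682669, plus strand) encodes endoglin, a co-receptor for BMP9 and TGF-beta on endothelium and on long-term blood stem cells. Its level was 71.7, 77.4 and 82.5 CPM in the LSK libraries and 2.43, 3.14 and 1.99 CPM in the ESC-derived libraries. The libraries within each group were close, and the groups lay far apart. Eng fell from 77.2 ± 5.39 to 2.52 ± 0.583 CPM, a log2 fold change of -4.94 ± 0.25 (edgeR adjusted p = 3.53e-05, range over 16 alternatives 2.61e-97 to 0.00117). It was the only member past the threshold under all 16 alternatives. The end of Eng shares 61 exon bases with Fpgs on the other strand, and the library kit does not mark strand. Fpgs fell less than Eng, by 1.39 ± 0.28 on the log2 scale, and lost its call without LSK replicate 2 (edgeR adjusted p = 0.0557).

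Of the surface glycoproteins, Emcn (ENSMUSG00000054690, chromosome 3, 137341067 to 137432185, plus strand) encodes endomucin, a sialomucin of venous and capillary endothelium and of blood stem cells. Emcn was at 54.7, 43.6 and 32.9 CPM in the LSK libraries and at 13.9, 5.97 and 3.38 CPM in the ESC-derived libraries. Each group spanned a wide range, and the lowest LSK library still held more than the highest ESC-derived one. Emcn fell by 2.49 ± 0.54 on the log2 scale (edgeR adjusted p = 0.0141, range over 16 alternatives 7.94e-06 to 0.0541). The call was lost without ESC-derived replicate 2 (0.0541), and the log2 fold change was -3.22 without ESC-derived replicate 1.

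Robo4 (ENSMUSG00000032125, chromosome 9, 37401897 to 37415115, plus strand) encodes the roundabout receptor of endothelium, also known for anchoring blood stem cells in marrow. Robo4 was at 13.8, 16.9 and 17.5 CPM in the LSK libraries and at 2.26, 1.16 and 0 CPM in the ESC-derived libraries. The LSK libraries were close to each other, while the ESC-derived ones ran from 0 to 2.26 CPM. The log2 fold change of -3.82 ± 1.33 did not pass (edgeR adjusted p = 0.0738, range over 16 alternatives 0.00349 to 0.166). Robo4 passed with the DESeq2 Wald test, limma-voom, counts divided by 4 and without ESC-derived replicate 3 (log2 fold change -3.23, edgeR adjusted p = 0.00637), and the log2 fold change was -4.80 without ESC-derived replicate 1. Robo3 ends 554 bases from the end of Robo4 on the other strand and had 2.47, 4.42 and 6.23 CPM in the LSK libraries, while the ESC-derived group was at 0 and so at least 47.6-fold lower.

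Egfl7 (ENSMUSG00000026921, chromosome 2, 26580014 to 26593120, plus strand) encodes a secreted protein of the vessel wall. It had the highest level of the members in LSK cells, at 144, 121 and 102 CPM in replicates 1 to 3. The ESC-derived libraries had 16.7, 3.68 and 0.528 CPM, so replicate 1 held 702 of the 883 counts. The groups did not overlap, and the ESC-derived libraries differed from each other more than for any other member above 0 in each library. Egfl7 fell from 122 ± 21.1 to 6.97 ± 8.57 CPM, a log2 fold change of -4.13 ± 1.08 (edgeR adjusted p = 0.0276, range over 16 alternatives 0.00135 to 0.0923). Leaving out LSK replicate 1, 2 or 3 or ESC-derived replicate 2 ended the Egfl7 call (0.0583 to 0.0923), and the log2 fold change was -5.86 without ESC-derived replicate 1. Egfl7 shares 64 exon bases with Agpat2 on the other strand, which fell by 2.21 ± 0.23 on the log2 scale.

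Sox17 (ENSMUSG00000025902, chromosome 1, 4490931 to 4497354, minus strand) encodes a transcription factor of arterial and haemogenic endothelium and of fetal blood stem cells. It had 4 counts in LSK replicate 2 and 0 in each of the other 5 libraries. Both groups were under the floor, and Sox17 was not tested.

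Per kilobase of annotated exon, the members kept a clear order in LSK cells. Egfl7 led with 34.1 ± 5.88 CPM per kilobase, followed by Eng with 19.1 ± 1.33. Pecam1 (8.35 ± 0.349) and Emcn (8.08 ± 2.02) did not differ beyond their spread, nor did Tie1 (3.17 ± 1.11), Robo4 (3.03 ± 0.378) and Tek (2.23 ± 0.455). Kdr had 0.316 ± 0.0967 CPM per kilobase. In ESC-derived cells the order of these levels changed, with Pecam1 first at 4.15 ± 1.04 CPM per kilobase. Egfl7 followed at 1.95 ± 2.39 and Emcn at 1.43 ± 1.01, within each other's spread, then Eng at 0.622 ± 0.144. The remaining detected members, Robo4, Kdr, Tek and Tie1, ranged from 0.106 to 0.215 CPM per kilobase and overlapped. These 4 changed ranks among themselves when the longest transcript was taken as length.

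The ESC-derived replicates did not share equally in what remained. Replicate 3 had the lowest value, or shared it at 0, for 8 of 8 tested members. Replicates 1 and 2 each had the highest value for 4. Replicate 3 also had the lowest summed level of the monocyte and macrophage marker list, 389 CPM against 664 and 713 CPM in replicates 2 and 1, and of the defining endothelial list described below. The part of such cells in the members' values was not tested. Among LSK libraries, replicate 3 had the highest value for 6 of 8 members and the lowest for 2, Emcn and Egfl7.

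The partners of these members were described from 8 lists of 121 other endothelial and vascular genes, of which 91 were tested. Of these, 33 fell, 10 rose and 48 were not called, beside 15.2% and 14.8% of all tested genes. Their median log2 fold change was -1.01. Without LSK replicate 2, 22 fell and 7 rose, beside 7.34% and 8.61% of all tested genes. With the replicate number as a block 19 fell, beside 9.18%.

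**Figure D3:**
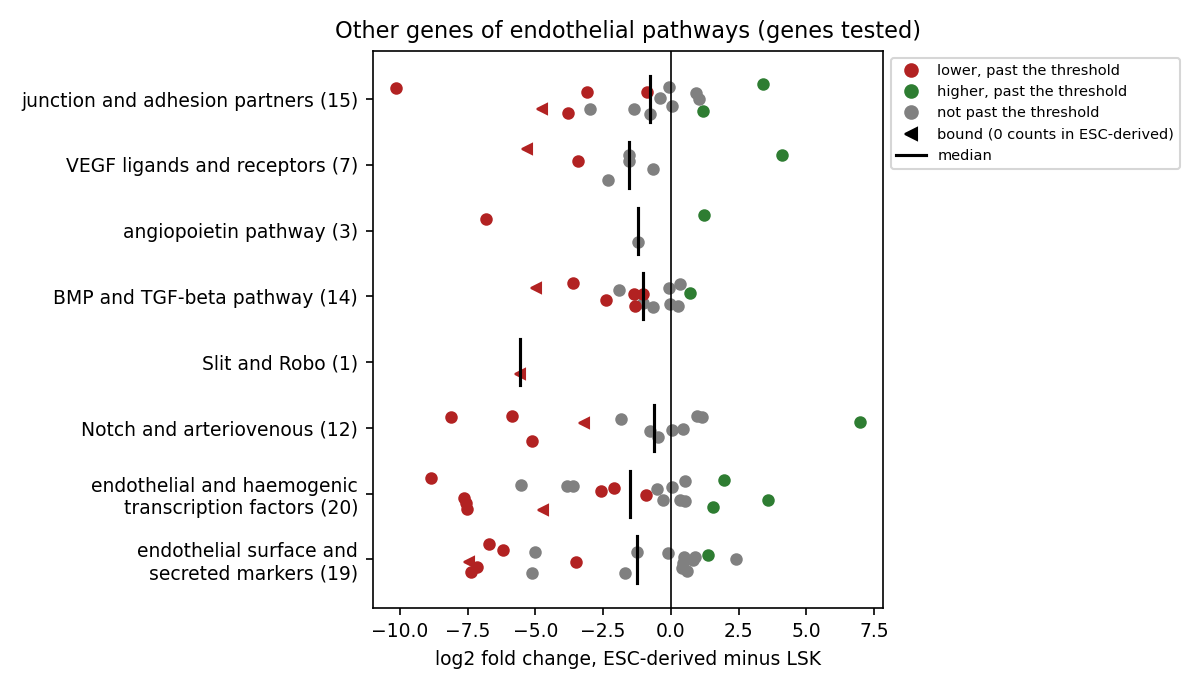
Log2 fold change (ESC-derived minus LSK) of the 91 tested genes of 8 endothelial pathway lists, 1 point per gene, red for falls, green for rises, grey for genes not past the threshold, triangles at the bound for genes with 0 ESC-derived counts and a black bar at each list's median. Each median lies below 0, and most lists hold both red and green points.

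Of 15 tested junction and adhesion partners, 5 fell, 2 rose and 8 were not called (median log2 fold change -0.78). Cd34, a sialomucin of endothelium and progenitors, had a log2 fold change of -10.14 ± 1.17 and fell. ESC-derived replicate 3 carried 67 of the 71 Cd34 counts of its group, and replicates 1 and 2 had 4 and 0. Without replicate 3 the ESC-derived group was thus under the floor, while the LSK group was above it. No ratio is given here for that case, and Cd34 was still called (edgeR adjusted p = 0.000147). Esam, an adhesion molecule of endothelial junctions and blood stem cells, fell by 3.80 ± 0.61, and Jam3, another junction molecule, was at least 27-fold lower with 0 ESC-derived counts. Icam1, a leukocyte adhesion ligand (1.20 ± 0.19), and Cd38, an ectoenzyme of activated lymphocytes (3.38 ± 0.32), rose. Cldn5, the tight junction protein of brain endothelium, was low in both groups, at 1.26 ± 0.984 CPM (LSK) and 1.21 ± 1.09 CPM (ESC-derived), and its log2 fold change of -0.06 ± 1.57 did not pass.

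Of 7 VEGF ligands and receptors tested, 2 fell, 1 rose and 4 were not called (median -1.56). Vegfc, a ligand of KDR and FLT4, had 3.63 ± 1.97 CPM in LSK cells and 0 ESC-derived counts, at least 39.4-fold lower. Vegfb fell by 3.42 ± 0.89 on the log2 scale, a call lost without any one library other than ESC-derived replicate 3 (edgeR adjusted p = 0.0529 to 0.0739). Vegfa, the main ligand of KDR, had 4.07 ± 1.10 CPM (LSK) and 1.41 ± 0.608 CPM (ESC-derived) and did not pass. Nrp1, a VEGF co-receptor also found on T and dendritic cells, rose by 4.09 ± 0.30.

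Of 3 angiopoietin pathway genes tested, 1 fell and 1 rose. Angpt1, the activating ligand of TIE2, was at 130, 150 and 162 CPM in the LSK libraries and at 3.64, 0 and 0.296 CPM in the ESC-derived libraries, a log2 fold change of -6.82 ± 1.37, and -9.88 without ESC-derived replicate 1. Ligand and receptor were thus both present in LSK cells, and both were lower in each ESC-derived library. Dok2, an adaptor downstream of TIE2 that is also used in T cells, rose by 1.23 ± 0.11.

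Of 14 tested genes of the BMP and TGF-beta pathway in which endoglin acts, 6 fell, 1 rose and 7 were not called (median -1.01). Id1, a target of BMP signalling, fell by 3.61 ± 0.44 on the log2 scale, and Smad6, an inhibitory SMAD, was at least 31.3-fold lower with 0 ESC-derived counts. Smad7, the other inhibitory SMAD, fell by 1.01 ± 0.27, and Smad2 rose by 0.70 ± 0.18. Both calls were lost without LSK replicate 2 (edgeR adjusted p = 0.148 and 0.141), and each was also lost without LSK replicates 1 or 3 or ESC-derived replicate 3 (adjusted p up to 0.0896), Smad7 without ESC-derived replicate 1 (0.0624) and Smad2 without ESC-derived replicate 2 (0.0502). The endothelial receptors that bind BMP9 with endoglin were low, with Acvrl1 at 1.43 ± 1.61 CPM (LSK) and 0.374 ± 0.225 CPM (ESC-derived) and Bmpr2 at 4.29 ± 1.71 CPM (LSK) and 2.13 ± 1.25 CPM (ESC-derived), and neither passed (Acvrl1 log2 fold change -1.92 ± 1.17, and -0.44 without LSK replicate 3). The ligand genes Gdf2 (BMP9) and Bmp10 had 0 counts in all 6 libraries.

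Of 7 Slit and Robo genes, Robo3 was tested and is described above. The others, Slit1, Slit2, Slit3, Robo1, Robo2 and Unc5b, had at most 26 counts in a group.

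Of 12 Notch and arteriovenous genes tested, 4 fell, 1 rose and 7 were not called (median -0.62). The Notch ligands moved in both directions. Jag2 fell from 5.02 ± 0.932 to 0.0157 ± 0.0273 CPM, with 2 ESC-derived counts and a ratio of 330 (95% counting interval 29.3 to 6570). Both counts were in ESC-derived replicate 2, and with that library left out Jag2 was at least 37.3-fold higher in LSK cells against the floor. Dll4 was at least 9.25-fold lower with 0 ESC-derived counts, a call lost without LSK replicate 2 (edgeR adjusted p = 0.0651). Jag1 rose, from 12 counts over the LSK libraries, all in replicate 1, to 24.1, 5.15 and 3.42 CPM in the ESC-derived libraries. Its ratio, LSK over ESC-derived, was 0.00809 (95% counting interval 0.00166 to 0.0238). Without LSK replicate 1 the LSK group was at 0, and Jag1 was still called (edgeR adjusted p = 0.0218). The Jag1 call was lost without LSK replicates 2 (edgeR adjusted p = 0.069) or 3 (0.0598) or ESC-derived replicate 1 (0.0838). Hes1, a Notch target, fell by 5.86 ± 1.24 on the log2 scale, and its log2 fold change was -8.80 when ESC-derived replicate 2 was left out. Rbpj, the DNA-binding factor of the pathway, did not pass at 45.7 ± 3.77 CPM (LSK) and 47.4 ± 9.96 CPM (ESC-derived).

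Of 20 endothelial and haemogenic transcription factors tested, 8 fell, 3 rose and 9 were not called (median -1.50). Mef2c (-7.54 ± 0.31), Lmo2 (-7.53 ± 0.70, and -8.43 without ESC-derived replicate 1), a bridging factor of the haemogenic complex, and the ETS repressor Etv6 (-2.59 ± 0.23) fell on the log2 scale. Klf2, a shear-responsive factor of endothelium that also keeps T cells quiescent (1.54 ± 0.10), Foxo1 (1.96 ± 0.29) and Ets1 (3.59 ± 0.21) rose. The ETS factors, for which words that contain their core are marked in the promoters above, did not move as 1 group. Erg, the endothelial and stem cell ETS factor, named after its values were seen, was at 17.2, 13.2 and 16.03 CPM in the LSK libraries and had 4 ESC-derived counts, a ratio of 511 (95% counting interval 91.4 to 20200). All 4 counts were in ESC-derived replicate 2, and with that library left out Erg was at least 116-fold higher in LSK cells against the floor. Ets1 was at 24.2, 30.9 and 18.4 CPM in the LSK libraries and at 306, 301 and 280 CPM in the ESC-derived libraries. Tal1, a master factor of haemogenic endothelium, was at 13.3, 4.90 and 4.99 CPM in the LSK libraries and had 21 ESC-derived counts, all in replicate 2. Its log2 fold change of -5.54 ± 1.77 did not pass (edgeR adjusted p = 0.0564, and 0.00788 without that library). Runx1, the factor that drives the endothelial to blood transition, was at 82.2, 94.4 and 125 CPM in the LSK libraries and at 70.1, 76.9 and 66.9 CPM in the ESC-derived libraries, which did not overlap. The log2 fold change of Runx1 was -0.50 ± 0.18 and did not pass (edgeR adjusted p = 0.0867), but it passed with library totals only (-0.74, adjusted p = 0.0142) and with the DESeq2 Wald test (0.0287). Fli1, at 49.6 ± 3.68 CPM (LSK) and 62.1 ± 14.1 CPM (ESC-derived), did not pass.

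Of 19 tested endothelial surface and secreted markers, 6 fell, 1 rose and 12 were not called (median -1.25). Cd93, a C-type lectin of endothelium and progenitors, fell by 6.18 ± 0.32 on the log2 scale, and Myct1, a gene of endothelial and blood stem cells, had a log2 fold change of -6.72 ± 0.64 (-7.60 without ESC-derived replicate 1). Mmrn1, a multimerin of platelets and endothelium, was at least 175-fold lower with 0 ESC-derived counts. Fabp4, a fatty acid carrier of capillaries and macrophages, rose by 1.36 ± 0.31, a call lost without LSK replicates 2 (edgeR adjusted p = 0.0802) or 3 (0.0556). Rgcc, the marker with the highest mean over all 6 libraries, did not pass at 130 ± 10.6 CPM (LSK) and 119 ± 18.4 CPM (ESC-derived).

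Markers that define endothelium itself were low in both groups. Their list of 12 (Cdh5, Vwf, Plvap, Cldn5, Nos3, Clec14a, Ecscr, Mmrn2, Flt1, Flt4, Stab2 and Sox18) summed to 27.6 to 35.6 CPM in LSK and 16.01 to 41.4 CPM in ESC-derived libraries, ranges that overlap. Of its 10 tested genes, 1 fell, Sox18, and 0 rose. Plvap, a protein of fenestrated vessels, had the highest mean in both groups, with 9.05 ± 1.91 CPM (LSK) and 12.03 ± 1.61 CPM (ESC-derived). Stab2 had the highest value in a single ESC-derived library, at 15.5, 6.78 and 0 CPM in replicates 1 to 3. In LSK replicates 1 to 3 Stab2 was at 1.03, 1.01 and 2.13 CPM, and it did not pass (edgeR adjusted p = 0.346). Ecscr, an endothelial surface protein, was at 12.2, 8.996 and 5.42 CPM in the LSK libraries and at 0.756 CPM in ESC-derived replicate 2 alone, and did not pass (edgeR adjusted p = 0.0735, and 0.00438 without that library). Vwf, the clotting protein of endothelium and platelets, did not pass at 3.26 ± 0.807 CPM (LSK) and 1.02 ± 0.815 CPM (ESC-derived). Cdh5, Flt4 and Sox18 were at 0 in each ESC-derived library.

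**Figure D4:**
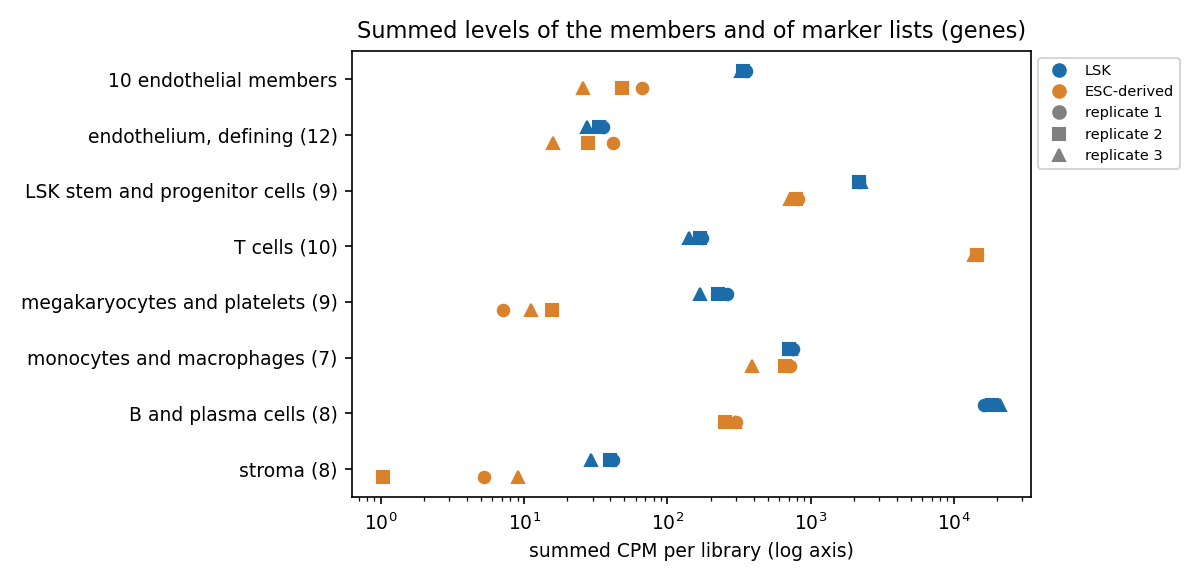
Summed CPM per library, on a log axis, of the 10 endothelial members and of 7 marker lists (number of genes in parentheses), LSK in blue and ESC-derived in orange, 1 symbol per replicate. The members separate the groups, with 326.1 to 354.9 CPM in LSK and 25.6 to 66.0 CPM in ESC-derived libraries, while the defining endothelial markers overlap.

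Of 6 lists of markers of other cells, 1 overlapped between the groups. This was the list of 7 monocyte and macrophage markers, of which 1 fell and 1 rose, with sums of 702.5 to 757.7 CPM in LSK and 388.8 to 712.7 CPM in ESC-derived libraries. Of 9 LSK stem and progenitor markers, 8 fell and 1 rose, and their sum was 2168 to 2258 CPM in LSK and 714 to 815 CPM in ESC-derived libraries, the latter nearly all from Cd48, which lymphocytes also carry. Of 10 T cell markers, 10 rose, with sums of 141 to 174 CPM in LSK and 13810 to 14410 CPM in ESC-derived libraries. Of 9 megakaryocyte and platelet markers 7 were tested and 5 fell, with sums of 168 to 262 CPM in LSK and 7.06 to 15.5 CPM in ESC-derived libraries, and Ppbp and Gp9 had 0 ESC-derived counts. Gp6 had 0 counts in all 6 libraries. Of 8 B and plasma cell markers, 7 fell, with sums of 16100 to 21030 and 251 to 300 CPM, and of 8 stromal markers, 1 fell of 6 tested, with sums of 29.5 to 41.4 and 1.04 to 9.04 CPM. Megakaryocytes, monocytes and T cells can carry Pecam1, and the part of these cells in the members' differences was not tested.

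By the likeness of their profiles, the 5 genes nearest to Egfl7 over the 6 libraries were Krt18, Cd24a, Ift22, Vpreb1 and Pck2, at root mean square differences of 0.257, 0.282, 0.496, 0.530 and 0.568 in centred log2(CPM + 1). Krt18 was at 104, 107 and 94.5 CPM in the LSK libraries and at 8.59, 2.24 and 0.190 CPM in the ESC-derived libraries, the same order of ESC-derived replicates as Egfl7. None of the 5 belongs to the endothelial lists.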

How the data were processed

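RNA of 6 libraries was converted to cDNA with the SMART-Seq v4 kit and built into libraries with Nextera XT, per the labels' protocols. HISAT, StringTie and mm10 are listed in the submitters' processing notes, and the sources used here do not give versions, settings or the counting program. The authors deposited 1 estimated count per gene and library, in whole numbers without normalization, and 40.1 to 47.2% of values from 1 to 20 were divisible by 4. The header holds the 6 column names in 1 field, and columns were assigned from the order of names in it. Kit had 2081 to 2550 counts in the LSK columns and 2 to 6 in the ESC-derived columns, as their c-Kit gates are labelled. Symbols and positions are from GENCODE M21 (mm10), which matched 55141 of 55401 IDs.

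Genes were filtered with filterByExpr, scaled with TMM and fitted with the edgeR quasi-likelihood test (edgeR 4.0.16, R 4.3.3, robust, two-sided, Benjamini-Hochberg over 16211 genes, threshold 0.05), all 6 libraries and no replicate block. SE is the log2 fold change over the square root of F. A group at 0 was set to the floor of 12 counts, and intervals of ratios used counts divided by 4. Levels per length used the union of exons. All members are named, and per list up to 3 genes called in each direction by adjusted p, the gene with the highest mean, ligands or partners of a member (chosen with values in view), and the 5 genes nearest to the member with the highest mean. Other genes, such as adjacent ones and marker lists, are named for their place or role. The members and lists were chosen with earlier results of these data known. Alternatives were DESeq2 1.42.0, limma-voom (limma 3.58.1), RLE and upper quartile scaling, library totals, no filter and 50 counts in 3 libraries, counts divided by 4, a test against a 2-fold change, a replicate block and each library left out. The fit was tested on simulated data with 50 changed genes at each size of change. The changed genes were drawn only from genes above a cutoff of mean count. Recovery of genes with fewer counts, such as Kdr, was thus not measured. It recovered 12% of them where the simulated ratio was 2 and 52% where it was 4. Recovery was 78% at a ratio of 8 and reached 82% at 16, with 5 false calls among 15523 genes fitted. A gene that did not pass is thus not shown to be equal in the groups, least of all near a ratio of 2. The result for 1 further adjacent gene is not reported here.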

Additional observations from a re-analysis of the deposited data

How the results depend on the processing

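All 8 tested members stayed lower in ESC-derived cells under each of the 16 alternatives, and Eng alone passed under all 16. For these 8 each ESC-derived library lay below each LSK library, so their direction could hardly reverse in the same libraries. The number of members lower was 5 as fitted and 7 with the DESeq2 Wald test, limma-voom and counts divided by 4. It was 4 with no low-count filter, and 2 with the test against a 2-fold change, which left 6 of the other endothelial genes higher. Of all tested genes, 15.2% were lower as fitted, 19.3% with limma-voom and 18.2% with counts divided by 4. The share was 8.21% with no low-count filter and 8.53% with the test against a 2-fold change. The DESeq2 Wald test called 3380 of 16121 genes lower, beside 2466 of 16211 as fitted. The settings with 7 members lower thus also called more of all genes lower. With each library left out the number of members lower ran from 2 to 6, beside 7.34 to 13.7% of all tested genes. The number higher stayed at 0 in every setting. The fits that leave out a library have fewer samples. Replicate numbers shared between groups did not pair the libraries: deviations from the group means correlated at 0.014, 0.038 and 0.017 for numbers 1 to 3, although each library correlated best with its own number. With the replicate number as a block, 4 members were lower and, of the other endothelial genes, 19 were lower and 8 higher. Of all tested genes, 9.18% were then lower and 10.7% higher. With library totals only, the median of all genes moved from -0.07 to -0.31 and 63.5% of calls were lower instead of 50.7%. The members' calls stayed at 5 lower, beside 18.9% of all tested genes, and the log2 fold change of Rbpj changed sign (-0.19). With a library left out, Rbpj ran from -0.04 to 0.22, Cldn5 from -0.75 to 0.77 and Rgcc from -0.20 to 0. With the longest transcript as length the rank of 8 of 8 detected members in LSK cells was the same and that of 4 of 8 in ESC-derived cells (Robo4, Kdr, Tek and Tie1 moved), and Egfl7 had 65.4 CPM per kilobase. Cdh5 and Sox17 had 8 and 4 counts in all, too few to compare the groups at this depth.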
